A study of Caenorhabditis elegans with 24 samples.

Results

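The 6 vitellogenin genes of Caenorhabditis elegans, vit-1 to vit-6, were followed through the transcriptomes of tdp-1(ok803) and wild-type worms. They were taken by name, and all 6 were found among the 45642 genes of the poly(A) table, the 8783 genes of the table of RNA immunoprecipitated with the antibody J2 (J2-IP), and, through their sequence names, the table of its input RNA. The tdp-1(ok803) strain carries a deletion allele of tdp-1, the worm homolog of the RNA-binding protein TDP-43, and was set against the wild-type strain N2 (N2-CGC B). Poly(A)-selected RNA came from whole L4 larvae, the last larval stage, raised at 20°C (3 tdp-1(ok803) and 3 wild-type libraries). J2 binds double-stranded RNA, and J2-IP RNA (3 and 3 libraries) and input RNA (1 and 1 library) came from whole young adults raised at 15°C. Stage, temperature and RNA selection therefore changed together between the assays, so the assays are set side by side only. The study's methods give the J2-IP libraries as biologically independent lysates. The legend of the study's poly(A) comparison names fewer independent biological replicates than the 3 libraries per genotype used here. It does not say which of the libraries these are. Poly(A) p-values therefore measure the spread between the libraries, which may be technical in part.

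Vitellogenins are the precursors of yolk. In the adult hermaphrodite they are made by the intestine, secreted into the body cavity and taken up by growing oocytes through the receptor RME-2, and their transcription begins as larvae become adults. vit-1 and vit-2 encode the B form of the large yolk protein, vit-3, vit-4 and vit-5 its A form, and vit-6 a precursor that is cut into smaller yolk proteins. In the RefSeq annotation (WBcel235) vit-1 to vit-5 lie on chromosome X, with vit-3 and vit-4 as neighbors, and vit-6 lies on chromosome IV. The genes on chromosome X include close copies of each other, vit-3 and vit-4 most of all. Reads may thus have been split between vit-3 and vit-4, and single values of these 2 genes are uncertain. Sequence identity was not measured here.

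The poly(A) libraries held 65546397 to 107297985 reads each, recovered from the deposited values, and the members took between 1940 reads (vit-4, wild-type replicate 1) and 262700 reads (vit-6, wild-type replicate 2). The depth of the J2-IP and input libraries is unknown. Replicate 1 of both genotypes stood apart in poly(A) RNA: the first principal component, with 55.6% of the variance, placed the tdp-1(ok803) libraries 1 to 3 at -89.7, 33.9 and 27.5 and the wild-type libraries at -79.7, 43.8 and 64.2. The members' poly(A) results are thus given over 3 replicates and over replicates 2 and 3. The tdp-1 gene itself was at 915, 3542 and 3478 normalized counts in tdp-1(ok803) poly(A) RNA, against 2156, 3501 and 4322 in wild-type. In young adults it was at 12 in tdp-1(ok803) input and 38 in wild-type input, and at 53, 61 and 50 in tdp-1(ok803) J2-IP as deposited, against 27, 27 and 25 in wild-type. A gene total does not separate reads inside and outside the deleted part, so these values do not check the labels.

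In L4 poly(A) RNA, the mean of each vitellogenin gene was lower in tdp-1(ok803) animals, but over 3 replicates none passed limma's test. The factor was about the same for all 6 genes in replicates 2 and 3, but replicate 1 split the family. The most abundant member, vit-6, was at 52206, 61711 and 79172 normalized counts in tdp-1(ok803) replicates 1 to 3, against 130457, 238327 and 274672 in wild-type. It was the only member whose genotypes did not overlap, a pattern that 551 of the 15807 genes tested showed in the same direction (3.49%). vit-2 was at 14585, 35403 and 43173 in tdp-1(ok803), against 37813, 147654 and 154610 in wild-type, where replicate 1 was the low library of both genotypes. vit-5 had 2786, 8844 and 10648 normalized counts in tdp-1(ok803) and 5171, 39292 and 36780 in wild-type. For vit-2, vit-5 and vit-6 the mutant value was below the wild-type value at each of the 3 replicate numbers, with ratios of 0.386, 0.240 and 0.279 for vit-2, of 0.539, 0.225 and 0.290 for vit-5 and of 0.400, 0.259 and 0.288 for vit-6. By comparison, 18.2% of the genes tested were lower at all 3 numbers.

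The remaining 3 members differed from these in replicate 1. vit-1 was at 8342, 6351 and 6958 normalized counts in tdp-1(ok803), against 7526, 25080 and 22957 in wild-type. vit-3 was at 7610, 5842 and 6510 in tdp-1(ok803), against 4450, 21654 and 23208 in wild-type. vit-4, the least abundant member, was at 2754, 2462 and 3001 in tdp-1(ok803), against 1523, 11185 and 11183 in wild-type. In all 3 genes the mutant libraries lay close together, whereas wild-type replicate 1 was far below the other wild-type libraries, so that the mutant over wild-type ratio was 1.11, 1.71 and 1.81 for vit-1, vit-3 and vit-4 in replicate 1 and between 0.220 and 0.303 in replicates 2 and 3.

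**Figure D1:**
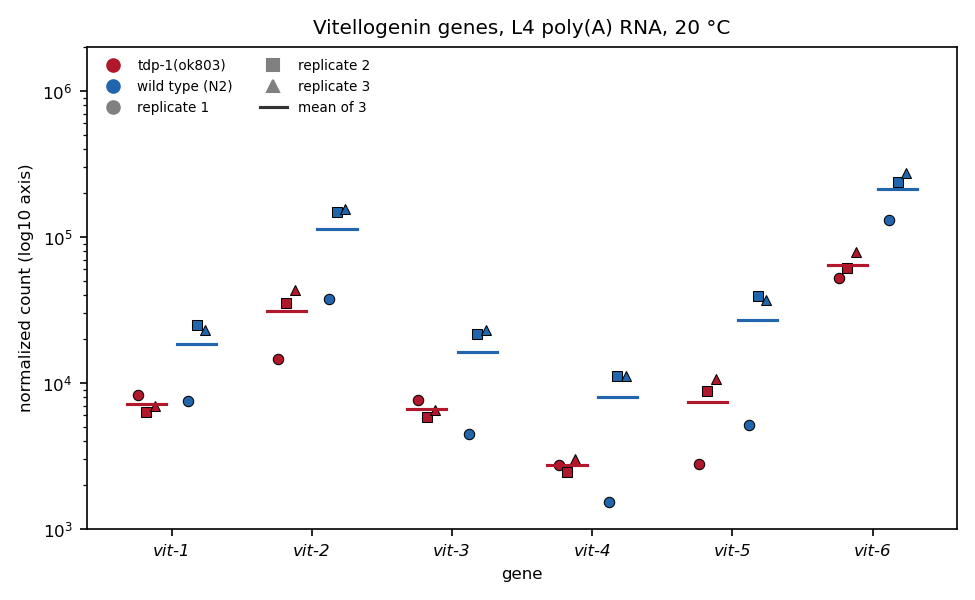
Normalized counts (log10 axis) of the 6 vitellogenin genes in L4 poly(A) RNA, with tdp-1(ok803) in red on the left and wild-type in blue on the right of each gene, 1 symbol per replicate and a bar at the mean of 3. Replicates 2 and 3 of tdp-1(ok803) lie below those of wild-type for every member, while in replicate 1 vit-1, vit-3 and vit-4 lie above wild-type, at 8342, 7610 and 2754 against 7526, 4450 and 1523.

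Over 3 replicates none of the 6 members passed limma's test (adjusted p under 0.05 over 15807 genes), and neither did any other gene (0%). limma's log2 fold change is the mutant mean of log2(normalized count + 1) minus the wild-type mean. It was -1.18 for vit-1 (standard error 0.46), -1.76 for vit-2 (0.63), -0.98 for vit-3 (0.60), -1.08 for vit-4 (0.72), -1.61 for vit-5 (0.84) and -1.69 for vit-6 (0.35), each with a limma adjusted p of 1. At an unadjusted p under 0.05, 3 of 6 members were lower (vit-1, vit-2 and vit-6), as were 1.1% of the genes tested. The members nonetheless stood at the low end of all fold changes, since between 0.468% (vit-2) and 2.79% (vit-3) of the genes tested had a lower one. On the recovered reads, edgeR's quasi-likelihood test called none of the 6 after adjustment, with all 6 at an unadjusted p under 0.05, and DESeq2 called 1, vit-6 (log2 fold change -1.74, standard error 0.38, DESeq2 adjusted p = 0.011), among 10 genes that it called lower (0.0633% of 15807).

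In replicates 2 and 3 alone, a comparison of 2 libraries with 2, all 6 members were called lower, against 351 of the 15284 genes tested (2.3%) called lower and 2.19% called higher. vit-4 had the lowest log2 fold change (-2.04, standard error 0.17), followed by vit-5 (-1.97, 0.18) and vit-2 (-1.95, 0.22). vit-6 (-1.87, 0.25), vit-3 (-1.86, 0.17) and vit-1 (-1.85, 0.17) were close behind. The limma adjusted p of the 6 ran between 0.0035 and 0.011. Replicate 1, where vit-1, vit-3 and vit-4 were higher in tdp-1(ok803), was left out because it stood apart in these data. The study's poly(A) legend gives 2 independent replicates per genotype, so replicates 2 and 3 may not be independent of each other. These p-values may thus measure technical spread in part. Both mutant libraries lay below both wild-type libraries for every member, as they did in 29.2% of the 15807 genes. Between 0.281% and 0.465% of the genes tested had a lower fold change than each member. The separation of replicate 1 was large for the members themselves: in wild-type, the mean of replicates 2 and 3 was 3.19, 3.997, 5.04, 7.34, 7.36 and 1.97 times replicate 1 for vit-1 to vit-6 in that order, where the median gene stood at 0.989. In tdp-1(ok803) the same ratio was 0.798 for vit-1, 0.812 for vit-3 and 0.992 for vit-4, but 2.69 for vit-2, 3.50 for vit-5 and 1.35 for vit-6, with the median gene at 1.00.

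Summed over the family, vitellogenin RNA came to 88283, 120614 and 149463 normalized counts in tdp-1(ok803), against 186941, 483193 and 523411 in wild-type. The sums of the genotypes did not overlap, and their ratio was 0.472 in replicate 1, 0.250 in replicate 2 and 0.286 in replicate 3. These sums made up 0.162% ± 0.058 of all normalized counts in tdp-1(ok803) and 0.496% ± 0.240 in wild-type (SD, n = 3 each). Leaving out vit-3 and vit-4 kept the genotypes apart, with sums of 77920, 112310 and 139951 in tdp-1(ok803), against 180967, 450353 and 489020 in wild-type. These 2 genes were a small part of each sum, so leaving them out could change little. The largest part was vit-6, at 52206, 61711 and 79172 in tdp-1(ok803), against 130457, 238327 and 274672 in wild-type. As the only member without overlap, vit-6 weighs most in the separation of the sums, and no sum without it was taken. Single genes showed such a separation in 3.49% of the genes tested. In whole worms, fewer vitellogenin-producing cells and less RNA per cell cannot be told apart. The study cites a mild growth delay of tdp-1 mutants, and a difference in age within L4 was not tested.

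In young adult J2-IP RNA all 6 members were higher in tdp-1(ok803) as deposited, and the difference depended on how the libraries were scaled. Quantile normalization, which sets each value by its rank in the library, turned it negative for 5 of the 6. vit-6 was at 48653, 46809 and 51968 normalized counts in tdp-1(ok803) J2-IP, against 30287, 29739 and 29389 in wild-type. vit-2 was at 27825, 26580 and 27373 in tdp-1(ok803), against 19650, 18623 and 19436 in wild-type. vit-5 was at 25358, 25543 and 24331 in tdp-1(ok803), against 15936, 16398 and 15674 in wild-type. The libraries of a genotype agreed closely, and no mutant library overlapped a wild-type one. The same held for vit-3 (15902, 16920 and 15177 in tdp-1(ok803), against 10640, 11333 and 10471 in wild-type) and for its neighbor vit-4 (15054, 16028 and 14269 in tdp-1(ok803), against 10121, 10772 and 10018 in wild-type). vit-1 was the lowest member, at 6168, 6405 and 6233 in tdp-1(ok803), against 4151, 4403 and 4150 in wild-type. The ratio of the genotype means was between 1.42 (vit-2) and 1.65 (vit-6), and 42.5% of the 3963 genes tested also had all mutant libraries above all wild-type libraries.

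**Figure D2:**
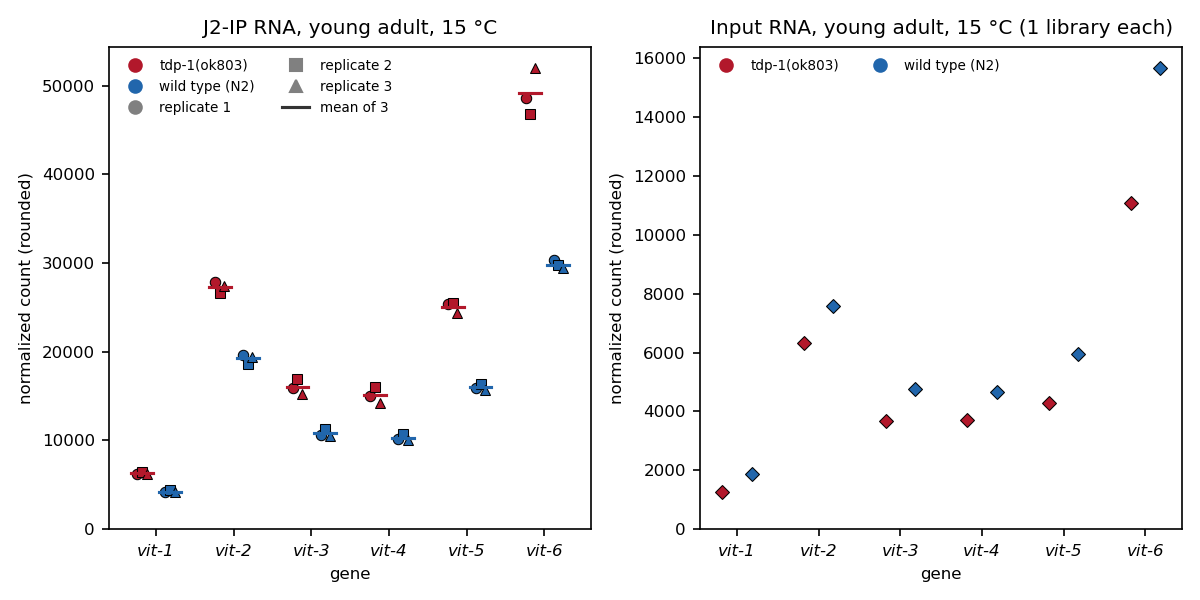
Normalized counts, rounded as deposited, of the 6 vitellogenin genes in young adult J2-IP RNA (left panel, 3 libraries per genotype, bars at the mean) and input RNA (right panel, 1 library per genotype), with tdp-1(ok803) in red left of wild-type in blue. As deposited, every mutant J2-IP value lies above every wild-type value (vit-6 between 46809 and 51968, against 29389 to 30287), while every mutant input value lies below its wild-type counterpart.

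limma called all 6 members higher in tdp-1(ok803) J2-IP (p under 0.05 and adjusted p under 0.1), as it did 1694 of the 3963 genes tested (42.7%), whereas under quantile normalization it called 1, vit-1, higher (21.8% of genes) and 2, vit-3 and vit-4, lower (26.1%). The log2 fold changes were 0.72 for vit-6 (standard error 0.11), 0.65 for vit-5 (0.09), 0.57 for vit-1 (0.06), 0.56 for vit-3 (0.09), 0.55 for vit-4 (0.09) and 0.50 for vit-2 (0.09), with limma adjusted p between 0.0016 and 0.0085. The median gene was shifted too, by 0.22, and the members stood between the 76.5th and the 87.8th percentile of all fold changes. Median-of-ratios scaling, which moves the median gene to -0.00, left 5 of 6 members called higher (23.6% of genes higher, 24.9% lower). vit-2 was lost there, with a log2 fold change of 0.27 and a limma adjusted p of 0.135.

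The input RNA, with 1 library per genotype and thus no test, had all 6 members lower in tdp-1(ok803). In tdp-1(ok803) input, vit-6 was at 11079 normalized counts, vit-2 at 6327, vit-5 at 4274, vit-4 at 3724, vit-3 at 3683 and vit-1 at 1270. In wild-type input, vit-6 was at 15668, vit-2 at 7583, vit-5 at 5943, vit-4 at 4672, vit-3 at 4762 and vit-1 at 1863. The ratios ran between 0.682 (vit-1) and 0.834 (vit-2), where the median gene was at 0.864 and 67.7% of 8354 genes were below 1. Of the 96 genes that reached 1000 in the wild-type input, 39.6% were below 1. No member was lower by more than 1.5-fold, which 13% of genes were.

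The study's methods state that J2-IP values were normalized to input, and refer for the procedure to supplementary methods that were not available here. The mutant values were therefore also multiplied back by the ratio of mutant to wild-type input for each gene, which assumes that they had been scaled by that ratio and that the wild-type values had not. The library totals are the only evidence for this assumption. Multiplied in this way, the mutant totals over 8434 genes came to 1005702, 1015634 and 995688, against deposited totals of 1294504, 1311259 and 1351482 and wild-type totals of 1031687, 1038161 and 1017806. On these multiplied values none of the 6 members was called by limma, also at an unadjusted p under 0.05, against 10% of 3843 genes called higher and 24.1% called lower. The log2 fold changes were 0.24 for vit-2 (standard error 0.11), 0.22 for vit-4 (0.09) and vit-6 (0.13), 0.19 for vit-3 (0.09), 0.17 for vit-5 (0.10) and 0.01 for vit-1 (0.06). The genotypes still did not overlap for 5 of the 6, all but vit-1 (mutant higher in 12.9% of genes). The input ratio rests on 1 library per genotype, and its error is not known.

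**Figure D3:**
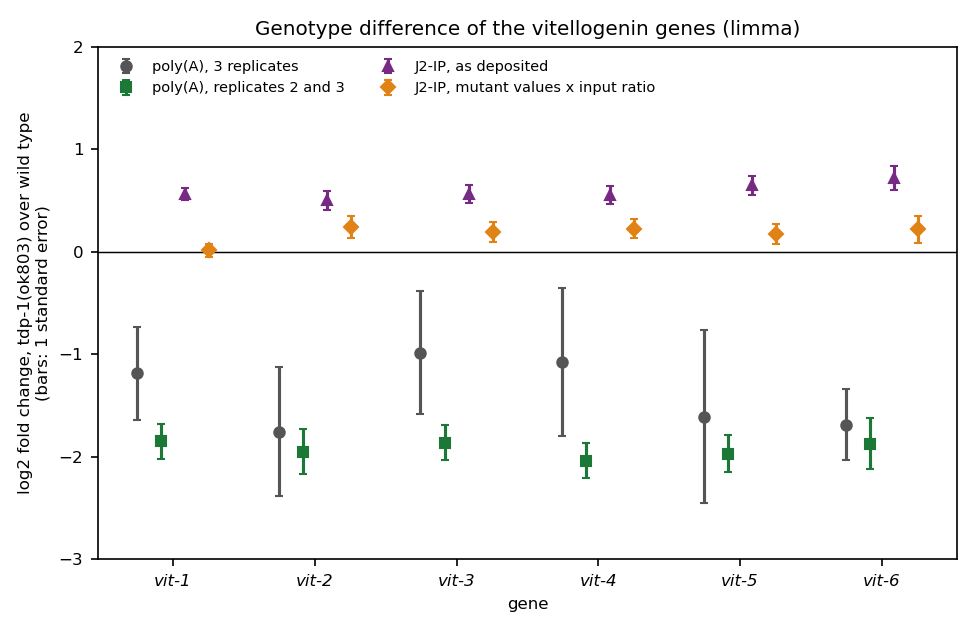
log2 fold change (mutant over wild-type) for each vitellogenin gene (limma, bars are 1 standard error) in L4 poly(A) RNA over 3 replicates (gray) and over replicates 2 and 3 (green), and in young adult J2-IP RNA as deposited (purple) and after the mutant values were multiplied by the input ratio (orange). Poly(A) values lie between -2.04 and -0.98, and J2-IP values between 0.50 and 0.72 as deposited and between 0.01 and 0.24 after multiplication, though quantile normalization of the J2-IP values, not drawn, turned 5 of the 6 negative.

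Set against its input, wild-type J2-IP RNA was rich in vitellogenin transcripts. The ratio of the 3 wild-type J2-IP libraries to the wild-type input was 2.69 ± 0.062 for vit-5, 2.54 ± 0.071 for vit-2, 2.27 ± 0.078 for vit-1, 2.27 ± 0.096 for vit-3, 2.21 ± 0.088 for vit-4 and 1.90 ± 0.029 for vit-6 (SD, n = 3 J2-IP libraries over 1 input library). All 6 exceeded 1.5-fold in all 3 libraries, which 22.8% of 8434 genes did, and the median gene was at 1.15. The most abundant member, vit-6, thus had the lowest ratio, below the lowest library of every other member. The ratios of vit-1, vit-3 and vit-4 overlapped among libraries, although vit-4 was below vit-3 in each of the 3 libraries. In tdp-1(ok803), the deposited J2-IP values over the wild-type input were between 3.14 ± 0.17 (vit-6) and 4.22 ± 0.11 (vit-5), with the median gene at 1.40.

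The share of the whole table that fell to the 6 genes separated the assays by more than it separated the genotypes. In L4 poly(A) RNA it was between 0.0988% and 0.213% in tdp-1(ok803) libraries and between 0.222% and 0.670% in wild-type libraries. In young adult input RNA it was 3.42% in tdp-1(ok803) and 4.49% in wild-type, and in J2-IP RNA 10.2% ± 0.19 in tdp-1(ok803) and 8.55% ± 0.024 in wild-type (SD, n = 3 each). The members ranked between place 18 and place 5912 among the genes of a poly(A) library, between 4 and 84 in input and between 2 and 25 in J2-IP. The tables were normalized separately and list different numbers of genes, so these shares are a description.

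**Figure D4:**
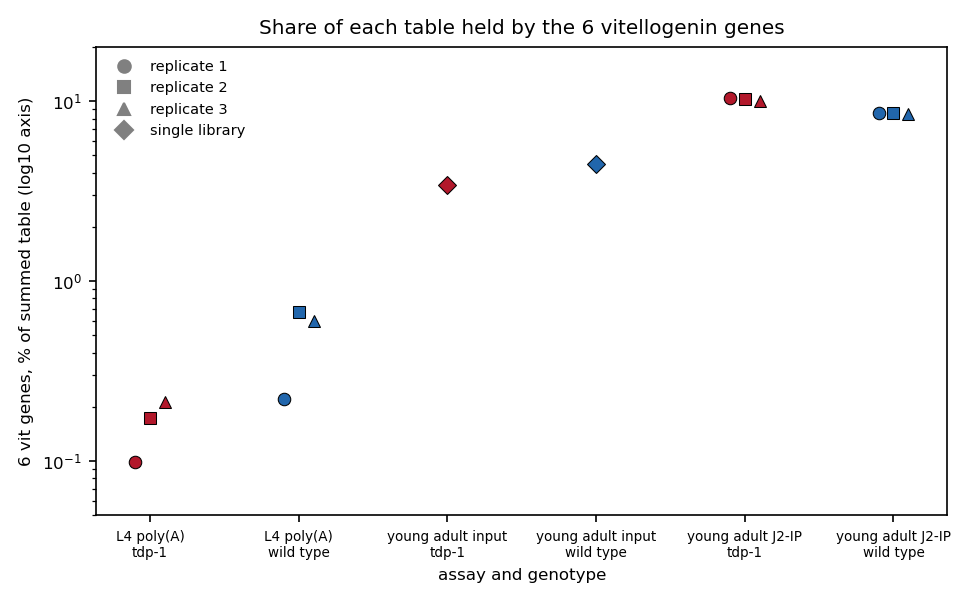
Share of the summed normalized counts of each library (percent, log10 axis) held by the 6 vitellogenin genes, with tdp-1(ok803) left of wild-type within each assay and 1 symbol per library. The shares lie between 0.0988% and 0.670% in L4 poly(A) RNA, at 3.42% and 4.49% in young adult input, and between 8.52% and 10.4% in J2-IP RNA.

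The proportions of the members to each other also differed between the assays. Per kilobase of gene (between 5.13 and 5.30 kb each), vit-6 came first and vit-2 next in every library. In J2-IP all 6 libraries had the same order, vit-6, vit-2, vit-5, vit-3, vit-4 and vit-1, with no overlap between neighbors in that order except vit-3 and vit-4, whose ranges overlapped although vit-4 was the lower in every library (3080 ± 169 and 2909 ± 170 per kilobase in tdp-1(ok803), 2082 ± 88 and 1983 ± 79 in wild-type). In poly(A) RNA vit-4 was the lowest member in all 6 libraries, while vit-1, vit-3 and vit-5 changed places among libraries and overlapped. The ratio of vit-4 to vit-3 was between 0.342 and 0.516 in poly(A) libraries, but 1.01 in tdp-1(ok803) input, 0.981 in wild-type input and between 0.940 and 0.956 in J2-IP. Conversely, vit-1 stood at between 0.973 and 1.66 of vit-3 in poly(A) RNA, and at between 0.339 and 0.404 in the young adult libraries. The ratio of vit-6 to vit-3 was between 6.72 and 28.7 in poly(A) RNA and between 2.57 and 3.35 in young adult libraries. Reads may have been split between vit-3 and vit-4, so these ratios, all taken to vit-3, are uncertain. Stage, temperature and RNA selection changed together between the assays, and the cause of the different proportions was not tested.

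**Figure D5:**
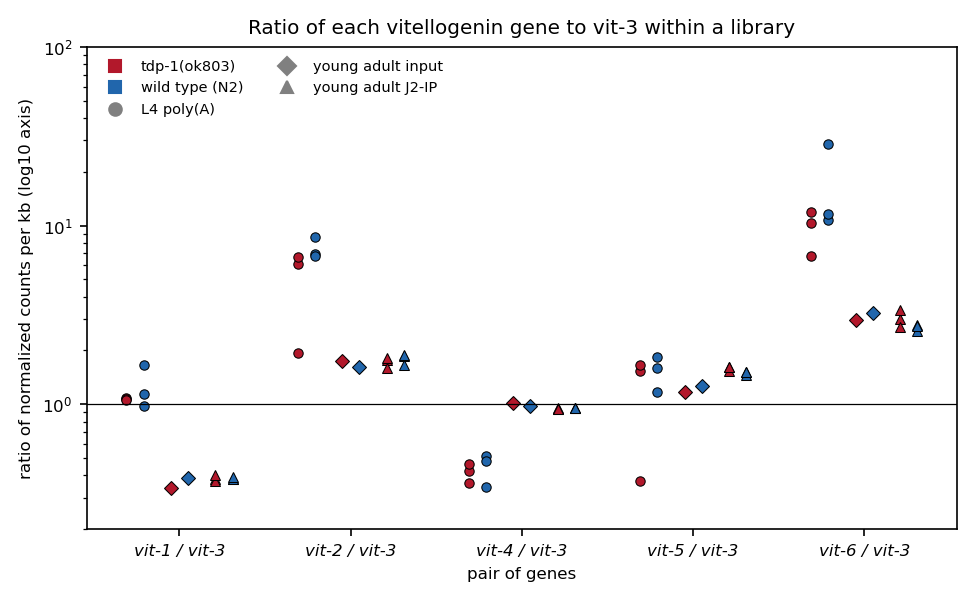
Ratio of each vitellogenin gene to vit-3 within a library, in normalized counts per kilobase of gene (log10 axis), for L4 poly(A) RNA (circles), young adult input (diamonds) and young adult J2-IP (triangles), with tdp-1(ok803) in red left of wild-type in blue. vit-4 lies between 0.342 and 0.516 of vit-3 in poly(A) RNA and between 0.940 and 1.01 in the young adult libraries, though reads may have been split between these genes. Replicate 1 of tdp-1(ok803) is the low poly(A) point of vit-2 (1.94) and vit-5 (0.371).

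Across the 6 poly(A) libraries the members varied together, at Pearson's r of log2 values between 0.759 and 0.992. It was 0.992 between vit-3 and vit-4, 0.966 between vit-1 and vit-3, 0.978 between vit-2 and vit-5 and 0.931 between vit-2 and vit-6, and lowest, at 0.759, between vit-4 and vit-6. In J2-IP all pairs were between 0.950 and 1.00. These values describe 6 libraries that share genotype and, in poly(A), the gap between replicate 1 and the others. Outside the family, the poly(A) genes whose log2 values followed the mean of the members most closely, among 12952 genes with a mean of at least 100, were Y38E10A.17 (r = 0.998), C54D2.1 (0.994), F59A3.12 (0.993), clec-87 (0.991), K09B11.5 (0.987) and clec-91 (0.985). clec-87, which encodes a C-type lectin domain protein, was at 1018, 1126 and 1393 normalized counts in tdp-1(ok803), against 1102, 3221 and 4087 in wild-type. In J2-IP the closest of 3951 genes were F29B9.11 (0.999), T24G10.2 (0.998) and Y71F9AL.9 (0.998), followed by Y46G5A.20, K12D12.9 and W06F12.7, whose values were at most 3 in every library.

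Of 24 genes listed for yolk production and uptake, none was called in poly(A) RNA by limma over 3 replicates, and 4 of the 24 fold changes were positive (median -0.34, against -0.02 over all genes). The list covers transcription factors of the vit genes, insulin and TOR signaling, lipoprotein assembly and endocytosis. In replicates 2 and 3, 1 gene was called lower, against 2.3% of genes. It was rme-2, the oocyte receptor for yolk, at 960 and 1223 normalized counts in tdp-1(ok803) and 2790 and 4354 in wild-type (-1.68 on the log2 scale with a standard error of 0.24, and an adjusted p of 0.013 by limma). In replicate 1, rme-2 was at 1944 in tdp-1(ok803) and 1329 in wild-type, the same turn as in vit-1, vit-3 and vit-4.

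The regulators named here did not pass the poly(A) test over 3 replicates or over replicates 2 and 3. elt-2, the GATA factor of the intestine that activates vit genes, was at 3572, 4229 and 4560 normalized counts in tdp-1(ok803) and 3340, 3414 and 3535 in wild-type (log2 fold change 0.26, standard error 0.21, and 0.34 in replicates 2 and 3). elt-7, the other intestinal GATA factor of the list and named after its values were seen, was at 509, 909 and 1111 in tdp-1(ok803) and 1051, 1335 and 1589 in wild-type (-0.70, 0.35, and -0.53 in replicates 2 and 3). The GATA factors thus had fold changes of opposite sign, neither past the test. unc-62, a homeodomain regulator of vit transcription, was at 5590, 3264 and 4061 in tdp-1(ok803) and 5589, 4562 and 5691 in wild-type (-0.32, 0.26, and -0.49 in replicates 2 and 3). dsc-4, the microsomal triglyceride transfer protein that loads lipid onto vitellogenins, was at 23092, 8444 and 9561 in tdp-1(ok803) and 23904, 10279 and 12507 in wild-type (-0.24, 0.47, and -0.34 in replicates 2 and 3). The genotypes overlapped for elt-7, unc-62 and dsc-4, whereas every mutant value of elt-2 was above every wild-type value, as in 4.43% of the genes tested.

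In J2-IP, 13 of the 24 genes were tested, and 4 were called higher and 2 lower, against 42.7% and 8.13% of all genes. Those called higher were rab-7, a late endosome GTPase (log2 fold change 0.75, standard error 0.06), dsc-4 (0.46, 0.08), rab-11.1, a recycling endosome GTPase (0.32, 0.10), and rme-1, an endocytic recycling factor (0.30, 0.07). The heterochronic transcription factor lin-29 (-0.38, 0.12) and the endosomal protein rme-8 (-0.23, 0.09) were called lower. dsc-4 was at 52, 52 and 47 in tdp-1(ok803) and 35, 39 and 35 in wild-type, where the genotypes did not overlap. After multiplication by the input ratio 2 of the 13 were called higher and 7 lower, against 10% and 24.1% of genes. dsc-4 (0.54, 0.08) and rab-11.1 (0.39, 0.10) were still called higher, and lin-29 (-0.72, 0.12) and rme-8 (-0.36, 0.09) lower. rab-7 was no longer called (0.15, 0.06), and rme-1 was now called lower (-0.20, 0.07). The other genes called lower were daf-2, tra-1, rict-1 and chc-1.

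Markers of tissues and stages moved beside the vitellogenins in replicates 2 and 3 of poly(A) RNA, where 2.3% of all genes were called lower and 2.19% higher. Over 3 replicates limma called no marker of any list, and the median log2 fold changes were -0.67 for oocyte and eggshell, -0.68 for sperm, -0.41 for intestine, -1.38 for adult cuticle, 0.22 for molt, 0.37 for hypodermis, -0.41 for muscle and 0.31 for neurons. In replicates 2 and 3, 9 of 10 oocyte and eggshell markers measured were called lower (median log2 fold change -1.33), with summed levels of 18088, 10982 and 14388 normalized counts in tdp-1(ok803) and 12976, 28849 and 41463 in wild-type, so that replicate 1 was again the reverse. Of 9 sperm markers tested, 4 were called lower (median -0.95, summed levels between 6483 and 11625 in tdp-1(ok803) and between 6703 and 24405 in wild-type, with msp-31 at 0 in every library). Among 10 intestine markers none was called by limma (median -0.44), and their summed level was 1244000, 471495 and 498729 in tdp-1(ok803) and 1224782, 639525 and 755720 in wild-type. The intestine, the tissue that makes yolk, was thus present in every library, with no marker of the list at 0.

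Stage markers went both ways. Of 5 adult cuticle markers 3 were tested and 1, the adult collagen col-19, was called lower in replicates 2 and 3, at 17592 and 18753 normalized counts in tdp-1(ok803) and 38055 and 33264 in wild-type. The summed level of this list was between 7783 and 21239 in tdp-1(ok803) and between 22806 and 43195 in wild-type, and bli-1 and bli-2 were at 0 in every library. Of 6 molt markers 2 were called higher, noah-1, at 20004 and 21284 in tdp-1(ok803) and 7260 and 9188 in wild-type, and nas-37, at 6342 and 5914 in tdp-1(ok803) and 2956 and 3365 in wild-type (summed levels of the list between 198138 and 323907 in tdp-1(ok803) and between 176089 and 313119 in wild-type). Of 3 hypodermis markers 1, dpy-7, was called higher (list sums between 65715 and 71734 in tdp-1(ok803) and between 40563 and 61573 in wild-type). None of 4 muscle markers was called (sums between 299423 and 987370 in tdp-1(ok803) and between 426461 and 891083 in wild-type), nor any of 4 neuron markers (between 13996 and 15063 in tdp-1(ok803) and between 11121 and 15151 in wild-type). In J2-IP as deposited, limma called 2 of 2 intestine markers tested, 2 of 7 oocyte and eggshell markers, 1 of 4 sperm markers, 1 of 1 adult cuticle markers and 4 of 4 muscle markers higher, and 1 of 4 sperm and 2 of 2 molt markers lower, against 42.7% of all genes higher and 8.13% lower. After multiplication by the input ratio (10% and 24.1% of genes) it called 1 intestine, 2 oocyte and eggshell, 1 adult cuticle and 1 muscle marker higher, and 1 oocyte, 4 sperm, 1 molt and 3 muscle markers lower. The sperm calls as deposited rest on rounded values near the floor. ssp-9 was at 4, 7 and 4 in tdp-1(ok803) J2-IP and 3, 3 and 3 in wild-type, and msp-3 at 6, 5 and 4 in tdp-1(ok803) and 9, 8 and 7 in wild-type. The 1 neuron marker tested was not called either way, and no hypodermis marker was in the J2-IP table. The part of tissue makeup and stage in the vitellogenin differences was not tested.

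The annotation of the noncoding RNA F59D8.3 overlaps vit-4, and its reads cannot be told apart from those of vit-4 where counting ignored strand. The study made strand-specific libraries of J2-IP and input RNA, but the methods available here do not say whether counting used the strand. F59D8.3 was listed at 0 in all poly(A) libraries, and at 153, 205 and 149 in tdp-1(ok803) J2-IP, 93, 79 and 101 in wild-type J2-IP, 7 in tdp-1(ok803) input and 9 in wild-type input. No vit gene was among the 189 genes with an edited region in the list of A-to-I editing in total RNA.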

How the data were processed

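Samples were grouped by their labels, and the comparisons were tdp-1(ok803) against wild-type within each assay. The authors deposited the poly(A) data as a signal per gene, the normalized count, from trimmed reads freed of rRNA and mapped to WS220. The submitters' processing notes name TopHat2 2.0.10 and HTSeq 0.5.4p3 without saying what each was used for. Dividing by a single step per library gave whole reads for 100% of values (tolerance 0.01). The J2-IP and input tables were deposited as a score, normalized counts that the authors rounded, and their depth is unknown. The columns of the authors' own comparisons, which hold fold changes and p-values of editing, were not used as values, and 0 other columns were left out. ChIP peaks were not used here.

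limma 3.58.1 in R 4.3.3 was fitted on log2(value + 1) over all genes with trend, and p-values were adjusted by Benjamini-Hochberg. Genes were tested in poly(A) where at least 3 libraries reached 10, and in J2-IP where 1 genotype had no value at 0 and a mean above 1.5 times the wild-type input. Names in the input table were joined to the J2-IP table through RefSeq locus tags (8602 of 8783). The scripts were tested on simulated data. Alternatives were edgeR 4.0.16 and DESeq2 1.42.0 on the recovered reads, other scalings, pseudocounts and filters, each library left out, replicates 2 and 3 alone, and a replicate block. Deviations from the genotype means correlated between libraries with the same replicate number at 0.657, 0.435 and 0.353 in poly(A) and 0.369, 0.782 and 0.535 in J2-IP. Libraries with different numbers were not correlated, and in poly(A) replicate 1 stood apart in both genotypes. These values therefore cannot show that the numbers pair the libraries. Ratios by replicate number and the replicate block assume such pairing, which the labels do not give.

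All members were named, with rme-2, elt-2, unc-62 and dsc-4, any called gene of the yolk pathway list, and the 6 genes most like the family in each assay. The members and lists were chosen with earlier results of these data known. Called marker genes were named after their values were seen. Python 3.11.15, pandas 2.3.3 and numpy 2.4.6 made the tables.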

Additional observations from a re-analysis of the deposited data

Results flagged for a closer look

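For vit-2, vit-5 and vit-6 the genotype difference had opposite signs in the 2 assays, with every tdp-1(ok803) library below its wild-type counterpart in L4 poly(A) RNA and above it in young adult J2-IP RNA as deposited, though quantile normalization turned the J2-IP fold change of each negative. The ratio of tdp-1(ok803) to wild-type means was 0.274 in poly(A) and 1.42 in J2-IP for vit-2, 0.274 and 1.57 for vit-5, and 0.300 and 1.65 for vit-6. The means of the other members also had opposite directions, at 0.390 and 1.48 for vit-1, 0.405 and 1.48 for vit-3, and 0.344 and 1.47 for vit-4. In poly(A) replicate 1, however, vit-1, vit-3 and vit-4 were higher in tdp-1(ok803). In young adult input, tdp-1(ok803) was at 0.834 of wild-type for vit-2, 0.719 for vit-5 and 0.707 for vit-6 (1 library each). After multiplication by that ratio, their J2-IP log2 fold changes were 0.24, 0.17 and 0.22, and none was called by limma. The difference between the assays was not tested, and they differ in stage, temperature and RNA selection.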

How the results depend on the processing

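In poly(A) RNA every setting kept a lower value in tdp-1(ok803) for all 6 members. The count of members called was 0 over 3 replicates, 1 with DESeq2 and 6 in replicates 2 and 3, and between 0 and 0 with single libraries left out. The fold changes nonetheless moved with single libraries: without wild-type replicate 1, vit-5 was at -2.57, vit-2 at -2.42, vit-4 at -2.03, vit-3 at -1.76 and vit-1 at -1.74 on the log2 scale. Without wild-type replicate 2, vit-3 was at -0.62 and vit-4 at -0.60, without wild-type replicate 3 at -0.57 and -0.60, and without mutant replicate 1 vit-5 was at -1.01. vit-6 ran between -2.01 and -1.48. A replicate block assumes that libraries with the same number are pairs. With it, 0 of 6 were called in poly(A) (4 at an unadjusted p under 0.05) and 6 of 6 in J2-IP. The block changed no call of a member, though the limma adjusted p in poly(A) fell to between 0.0898 (vit-2) and 0.498 (vit-3). In J2-IP the count was 6, and between 6 and 6 with single libraries left out, but 1 under quantile normalization, which also called 2 members lower, and 0 after multiplication by the input ratio. Quantile normalization reversed vit-2 to -0.23, vit-3 to -0.49 (limma adjusted p = 0.032), vit-4 to -0.73 (0.0051), vit-5 to -0.20 and vit-6 to -0.078 on the log2 scale. It sets values by rank, and the members were among the highest genes. Among all genes listed, vit-4 ranked 10, 11 and 12 in tdp-1(ok803) J2-IP and 9, 10 and 8 in wild-type. vit-3 ranked 9, 10 and 9 against 7, 8 and 7, and vit-1 ranked 19, 19 and 19 against 25, 23 and 25. The cause of the reversal was not tested. Over all genes, calls higher and lower split 1694 to 322 as deposited, 937 to 986 with median-of-ratios scaling, 862 to 1033 with quantile normalization and 385 to 928 after multiplication. The median ratio of wild-type J2-IP to input, 2.27 over the 6 members, was 1.94 with equal totals and 2.00 relative to the median gene, and the input ratio of tdp-1(ok803) to wild-type was 0.861 relative to the median gene. Rounded J2-IP values and a single input library per genotype limit the young adult results, and no interval for counting error could be given there.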
